A study of Mus musculus with 5 samples.

Results

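Circular RNAs made from genes of the ubiquitin system were followed in mouse testis after 35 days of triptolide. A circular RNA (circRNA, here also circle) arises when a splice donor joins an acceptor that lies upstream of it, and sequencing shows it as reads across that back-splice junction. The members were every circRNA whose listed host gene symbol began with Usp, Ube, Ubr, Fbx, Trim, Herc, Hect, Rnf, Cul, Klhl or Asb followed by a letter or digit. The rule left out 3 symbols of such names, which are not described. It used names only and no measured value. It gave 306 of the 11957 circRNAs listed, at 108 of 3496 host symbols. By name, 20 circles at 11 hosts belonged to conjugating enzymes, 206 circles at 72 hosts to ligases and their adaptors, and 80 circles at 25 hosts to deubiquitinases.

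The samples were whole testes of male C57/BL6J mice aged 10 weeks. Triptolide, a plant diterpenoid that blocks transcription in many cell types, was given by gavage at 50 µg per kg per day for 35 days. Control mice received saline. The labels give 6 mice per group, and the tables hold 2 control libraries and 3 triptolide libraries of total RNA freed of ribosomal RNA. The labels do not tell whether a library is 1 animal or a pool, so the p-values rest on the spread among the libraries alone, which may be technical. In the circRNA table the triptolide columns share a header, so those libraries are called triptolide A, B and C in column order, and in the table of long non-coding RNA (lncRNA) they are triptolide A, B and 3, with letters that do not correspond.

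Ubiquitin is a small protein that cells attach to other proteins. An activating enzyme (E1) charges it, a conjugating enzyme (E2) carries it, and a ligase (E3) chooses the substrate; deubiquitinases remove it again. Ligases come as RING proteins that bring a charged E2 to the substrate, as HECT proteins that take the ubiquitin over themselves, and as modular cullin complexes in which F-box, Kelch-BTB or SOCS-box proteins hold the substrate. In the testis the system is known for work on histones at meiotic chromosomes, in the repair of meiotic breaks, and in clearing proteins and organelles as spermatids elongate. A circle and the mRNA of its host come from the same transcripts, and a circle level says nothing by itself about the protein.

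The start regions of 2 hosts are shown because they carry circles on which the values below turn and because a listed antisense lncRNA locus runs across both: Usp32, host of the most abundant circle, and Usp15, host of a circle whose value hangs on 1 library. Each is the 250 bases before the start in RefSeq GRCm38.p6, written 5′ to 3′ on the gene's strand. Capitals mark matches to a GC box (GGGCGG, or CCGCCC on the other strand), the only one of the motifs searched that either region held.
Usp32, chr11:85139956-85140205, minus strand: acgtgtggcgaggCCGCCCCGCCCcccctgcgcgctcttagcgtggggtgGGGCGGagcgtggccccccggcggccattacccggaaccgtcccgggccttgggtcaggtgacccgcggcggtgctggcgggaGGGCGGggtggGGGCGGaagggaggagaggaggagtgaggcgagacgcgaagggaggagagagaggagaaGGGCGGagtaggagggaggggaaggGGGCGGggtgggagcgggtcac
Usp15, chr10:123197020-123197269, minus strand: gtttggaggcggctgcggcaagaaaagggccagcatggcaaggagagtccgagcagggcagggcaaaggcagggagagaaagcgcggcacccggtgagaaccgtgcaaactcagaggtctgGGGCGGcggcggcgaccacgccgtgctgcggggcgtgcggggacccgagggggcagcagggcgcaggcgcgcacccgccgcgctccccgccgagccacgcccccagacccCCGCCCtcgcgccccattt
The Usp32 region held 7 GC boxes, counting overlapping matches, and 26 CpG dinucleotides with 75.2% G or C. The Usp15 region held 2 GC boxes and 29 CpG with 73.6% G or C. Neither held TATAAA, nor the cyclic AMP response element TGACGTCA. Of the 108 member hosts, 84 had such a region in the RefSeq table, with 107 regions in all. A GC box was present in 71% of these, in 57.7% of the 3463 regions of all circle hosts and in 32.7% of all 32851 regions. The median number of CpG was 22, 18 and 6 in the same 3 sets. TATAAA, on either strand, was present in 1.87%, 6.3% and 12.4%, and TGACGTCA in 0%, 2.8% and 1.55%. A match describes these letters and is not a site of binding.

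Levels are given in SRPBM, junction reads scaled by the authors to the mapped reads of the library; it counts reads at a junction and is not divided by a length, so circles can be set side by side. A single junction read was worth 8.29 to 9.57 SRPBM, each library held 32804 to 44318 junction reads over 4510 to 5637 circRNAs, and no value below 2 reads was listed, so a 0 means only that a circle is listed at 0. Control 1 stood apart from the other libraries. Of 681 circRNAs listed in all other libraries with a mean of at least 10 reads there, 114 (16.7%) were at 0 in control 1, against 0.685% to 0.963% in the other libraries. Among the members this touched the circles of Ube2k and Usp15 in control 1, and that of Fbxo47 in triptolide B. Results on these circles are given with and without the library concerned. Of the marker genes listed for testis cells, 9 of 16 for germ cells hosted circles, 0 of 6 for Sertoli cells, 0 of 5 for Leydig cells and 1 of 8 for other cells (the macrophage gene Adgre1). The summed germ cell marker circles stood at 6847 and 6956 SRPBM in the controls and at 5195, 6813 and 4930 SRPBM in triptolide A, B and C. Dnah8 and Sycp1 gave most of this sum. By host, Prm2 stood at 703 and 290 SRPBM in the controls and at 86, 79 and 52 in triptolide. Tex14 stood at 261 and 169 against 76, 96 and 69. Hook1 went the other way, with 0 in each control and 28, 17 and 26 in triptolide. The other germ cell marker hosts overlapped between the groups. In bulk tissue, fewer cells of a type and less RNA per cell cannot be told apart.

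Triptolide and control testes held ubiquitin-system circles in total shares that overlapped, and no member circle passed the test. The members made up 2.29% and 2.47% of all circRNA SRPBM in the controls, and 2.48%, 2.41% and 2.3% in triptolide A, B and C. Each library listed between 106 and 151 of the 306 circles. In the comparison of triptolide with control (limma on log2(SRPBM + 16), Benjamini-Hochberg over all circRNAs), 0 of the 144 members above 0 in at least 2 libraries had an adjusted p under 0.05, as did 0% of the 5457 circRNAs tested. The smallest adjusted p from limma among members was 0.676. At an unadjusted p under 0.05 there were 6 members higher and 6 lower, which is 4.17% in each direction, against 1.8% higher and 4.8% lower over all circRNAs (6.6% in both directions). All 6 lower circles were listed at 0 in every triptolide library. Of the higher ones, those of Rnf212, Rnf2, Rnf138 and Herc2 were at 0 in both controls. These circles passed the filter only through the group where they were high, and their p-values are no support for a change. By edgeR on the junction reads behind the SRPBM values, 5 members were higher and 0 lower at an unadjusted p under 0.05, beside 1.23% higher and 1.03% lower over all circRNAs. By DESeq2 2 were higher and 0 lower, beside 0.531% and 0.11%. With either tool 0 passed adjustment.

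Simulated data give a limited view of how far this test can reach. Data were simulated at the real levels with a dispersion of 0.05 that was set and not estimated. Changed circRNAs and host sums were drawn only from those averaging at least 10 reads. The limma fit on single circRNAs recovered 0 of 200 changed 2-fold and 0 of 200 changed 4-fold. The fit on sums over all circles of a host recovered 0 of 200 at 2-fold and 64.5% at 4-fold. The limma fit on single circles could thus not be relied on to call changes of these sizes at that dispersion. The edgeR and DESeq2 fits on circles were not simulated, nor were the lowest value listed and the zeros of control 1. The simulation does not cover rarer circles, and the median member mean was 7.6 SRPBM, below the worth of a single read.

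Most members were rare. Of the 306 circles, 162 (52.9%) were listed in only 1 library and 35 (11.4%) in all 5, shares close to those over all circRNAs, 54.4% and 11.7%. The genomic span from the start to the end of a member circle, introns included, ran from 102 to 94211 bases with a median of 11750, below the median of 15636 for the other circRNAs with a host symbol. By role the median span was 23220 bases for conjugating enzymes, 10980 for ligases and 11727 for deubiquitinases. These are descriptions of which circles were listed, and no test was run on them.

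**Figure D1:**
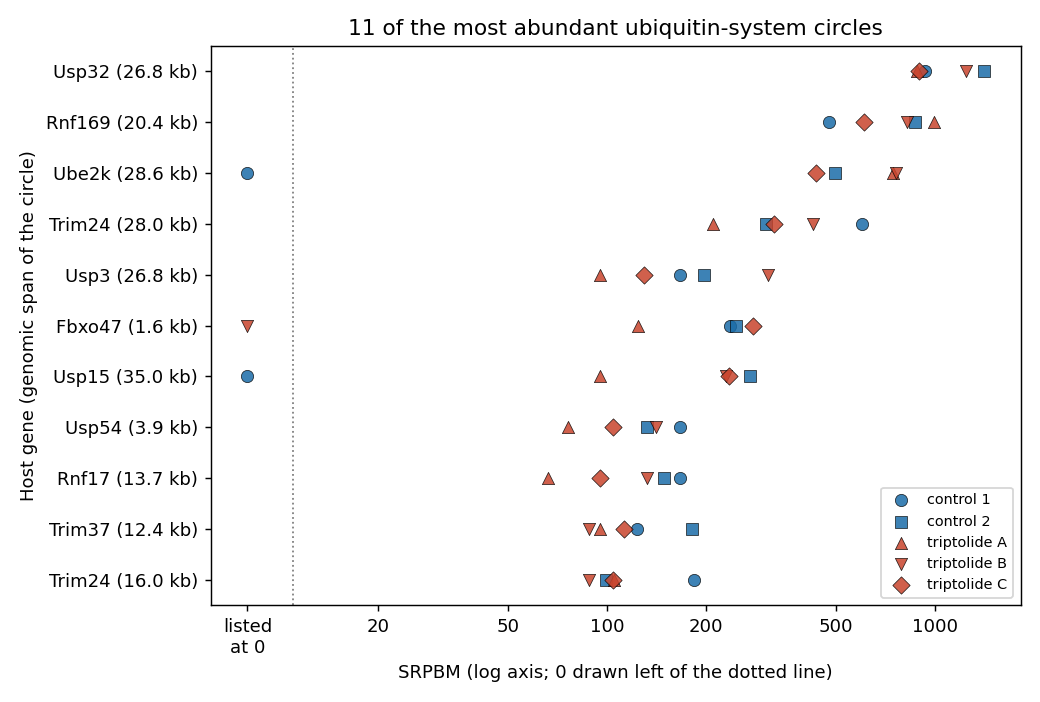
SRPBM on a log axis for 11 of the 12 member circles with the highest mean, with 1 point per library, controls in blue and triptolide in red; circles listed at 0 are drawn at the left edge. The Usp32 circle lies between 880 and 1408 SRPBM in all 5 libraries, while the Ube2k and Usp15 circles are at 0 in control 1 only and the Fbxo47 circle in triptolide B only.

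Among conjugating enzymes the most abundant circle was that of Ube2k, an E2 that builds degradation chains. Its only listed circle (chr5:65565989-65594548) stood at 0 SRPBM in control 1, 497 in control 2, and 746, 761 and 435 in triptolide A, B and C. Control 2 lies inside the range of the triptolide libraries, and control 1 alone is at 0. The log2 difference of triptolide from control was 2.83 ± 1.21 (SE), with an adjusted p from limma of 0.676. Without control 1 it was 0.33, with an adjusted p from limma of 0.90, and without control 2, with control 1 as the only control, it was 5.33 and passed the threshold. The size of the Ube2k difference thus hangs on a value of 0 in 1 library.

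The share of the whole class rested largely on the same circle. Ube2k gave 0 of the 190 SRPBM of the class in control 1 and 497 of 781 in control 2. In triptolide A, B and C it gave 746 of 945, 761 of 1040 and 435 of 710. The remaining circles of the class overlapped between the groups in summed SRPBM. Conjugating enzymes held 0.0544% of all circRNA SRPBM in control 1, 0.217% in control 2, and 0.303%, 0.267% and 0.232% in triptolide A, B and C. All 3 triptolide libraries are above both controls, control 2 by little. Beside Ube2k, the circle of Ube2r2, an E2 that works with cullin ligases, stood at 0 and 24 SRPBM in the controls and at 86, 62 and 60 in triptolide (chr4:41174041-41189286). The groups do not overlap. The log2 difference was 1.74 ± 0.63, with an unadjusted p of 0.0249 and an adjusted p from limma of 0.676. Without control 1 it was 1.08, with an adjusted p from limma of 0.90.

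Ube2e2, an E2 of the UBE2E family, hosted 4 circles. The circle at chr14:18795429-18800268 stood at 43 and 24 SRPBM in the controls and was listed at 0 in all 3 triptolide libraries (-1.60 ± 0.55, unadjusted p of 0.0199, adjusted p of 0.676 from limma). It passed the filter through the controls alone. Its difference and p depend on the 16 SRPBM added before the logarithm and bound no fold change. The same holds for every circle or host sum below that has 1 group at 0 throughout. Its most abundant circle, chr14:18586851-18630431, stood at 26, 49, 0, 35 and 26 SRPBM in control 1, control 2 and triptolide A, B and C, so there the groups overlap. The Ube2w circle at chr1:16581927-16602353 stood at 87 and 49 SRPBM in the controls and at 38, 70 and 43 in triptolide, again with overlap. Ube2w is an E2 that modifies the amino terminus of its substrates. The remaining hosts of this class, Ube2q2, Ube2e3, Ube2g1, Ube2t, Ube2u, Ube2d3 and Ube2cbp, had mean sums between 3.4 and 18.6 SRPBM. A single junction read was worth 8.29 to 9.57 SRPBM. The circles of Ube2g1 and Ube2d3 were each listed in only 1 library. Ube2cbp carries the name of this class but encodes a protein that binds an E2.

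**Figure D2:**
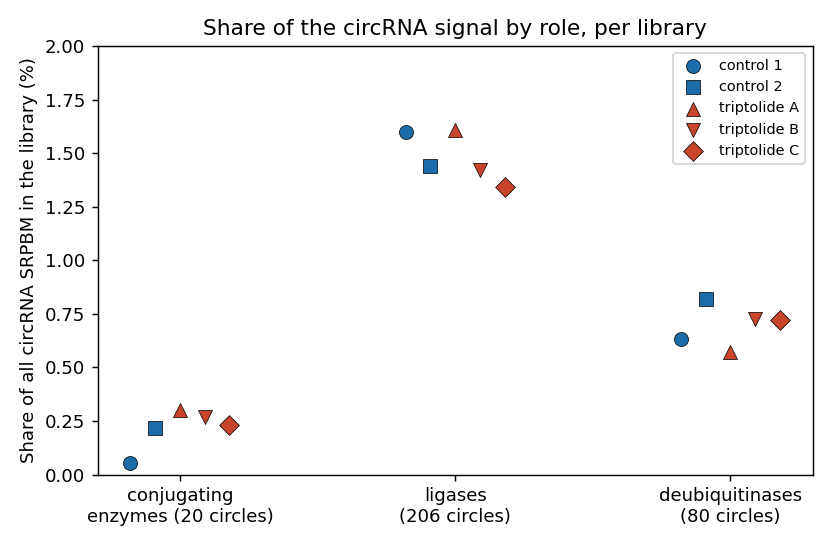
Share of all circRNA SRPBM of a library, in percent, held by the circles of each role, with 1 point per library, controls in blue and triptolide in red. Ligase circles hold 1.34% to 1.61% and deubiquitinase circles 0.573% to 0.818% with groups that overlap, and control 1 lies lowest for conjugating enzymes at 0.0544%.

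Ligase circles made up 1.6% and 1.44% of the circRNA signal in the controls and 1.61%, 1.42% and 1.34% in triptolide A, B and C. The highest and the lowest share are both triptolide libraries. The median log2 difference of the 102 ligase circles tested was -0.15, beside -0.06 over all 5457 circRNAs. Of the ligase circles 39 were above 0 and 63 below, beside 2496 and 2961 over all circRNAs.

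The RING finger genes of the Rnf family gave 66 circles at 26 hosts, the largest group. Rnf169, a reader of ubiquitinated histones at DNA breaks, held the most abundant of them (chr7:99935162-99955540), with 475 and 870 SRPBM in the controls and 994, 823 and 609 in triptolide A, B and C. Control 1 is lowest, and control 2 lies between triptolide B and A. The log2 difference was 0.29 ± 0.36, with an adjusted p from limma of 0.937, and it was -0.13 without control 1. This junction carried 98.2% of the SRPBM of its host and ranked 34th among all circRNAs by mean level.

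Rnf17 encodes a germ cell protein with Tudor domains that is needed for spermiogenesis. Its leading circle (chr14:56427888-56441620) stood at 167 and 149 SRPBM in the controls and at 66, 132 and 95 in triptolide. All triptolide libraries are below both controls, with a log2 difference of -0.65 ± 0.41 and an adjusted p from limma of 0.676.

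Summed over its 10 circles, Rnf17 stood at 289 and 426 SRPBM in the controls and at 208, 324 and 121 in triptolide. Here triptolide B is above control 1, so the groups overlap (-0.75 ± 0.43). Without control 1 the log2 difference was -1.02, with an unadjusted p of 0.035 and an adjusted p from limma of 0.95.

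Of the 38 Rnf circles tested, 16 had a log2 difference above 0 and 22 below, beside 2496 and 2961 over all circRNAs. Their median was -0.12. All triptolide libraries were above both controls for 4 of them (10.5%, beside 6.78% over all circRNAs) and below both for 5 (13.2%, beside 10.5%). Among those above, Rnf212, a factor that stabilises meiotic crossovers, had a circle (chr5:108755824-108760085) listed at 0 in each control and with 47, 26 and 78 SRPBM in triptolide. A circle of Rnf2, the catalytic Polycomb ligase for histone H2A (chr1:151476140-151478625), stood at 38, 26 and 69 SRPBM in triptolide and at 0 in each control. A circle of Rnf138, a ligase of DNA end resection, gave 38, 35 and 43 SRPBM in triptolide and 0 in each control (chr18:21010677-21020999). Each of these values is a handful of reads. The other Rnf138 circle, chr18:21008725-21020999, shares that end and was more abundant in the mean, with 35 and 41 SRPBM in the controls and 19, 44 and 0 in triptolide (-0.74 ± 0.77, with overlap). The log2 differences of the Rnf212, Rnf2 and first Rnf138 circles were 1.97 ± 0.70, 1.85 ± 0.69 and 1.77 ± 0.65 in the same order, with unadjusted p of 0.0227, 0.0288 and 0.0274, and the adjusted p from limma was 0.676 for each. With both controls at 0, these differences depend on the 16 SRPBM added before the logarithm and bound no fold change.

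Rnf111, which encodes the ligase Arkadia of TGF-beta signalling, had circles on both sides. The circle at chr9:70475776-70476668 stood at 35 and 0 SRPBM in the controls and at 76, 53 and 43 in triptolide (1.34 ± 0.69). The circle at chr9:70469355-70476668, which ends at the same position, stood at 61 and 24 SRPBM in the controls and at 19, 0 and 0 in triptolide. Neither pair of groups overlaps, and the adjusted p from limma was 0.676 for both. Rnf214 had a like pair that shares an end: chr9:45890804-45900256 stood at 35, 82, 143, 35 and 104 SRPBM over the 5 libraries in order, and chr9:45869179-45900256 at 70, 33, 28, 0 and 0. The first overlaps between groups and the second does not.

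The tripartite motif (Trim) genes gave 39 circles from 5 hosts, and 34 of them came from Trim37 and Trim24. Trim24, a chromatin reader that can also act as a ligase, held a circle at chr6:37903533-37931500 with 598 and 306 SRPBM in the controls and 210, 425 and 322 in triptolide. Triptolide B and C lie between the controls, and the log2 difference was -0.46 ± 0.42 (0.00 without control 1). A shorter circle from the same start, chr6:37903533-37919490, stood at 184 and 99 SRPBM in the controls and at 105, 88 and 104 in triptolide. Another that ends with the longer one, chr6:37908217-37931500, stood at 17 and 24 SRPBM in the controls and was listed at 0 in all triptolide libraries (-1.18 ± 0.44, unadjusted p of 0.0291). These were values of 2 or 3 reads.

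Trim37, a ligase that controls centrosome assembly, had more listed circles than any other member, 22, from 10 start and 13 end positions. No circle dominated: the leading junction (chr11:87205933-87218330) held 24.3% of the sum and stood at 123 and 182 SRPBM in the controls and at 95, 88 and 113 in triptolide, lower without overlap (-0.54 ± 0.39, adjusted p from limma of 0.681). The next, chr11:87159821-87167516, went the other way in sign, with 79 and 99 SRPBM in the controls and 162, 88 and 121 in triptolide. A rare circle, chr11:87140485-87149363, stood at 35 and 16 SRPBM in the controls and was listed at 0 in triptolide (-1.34 ± 0.50, unadjusted p of 0.0285). Summed over the host, the levels were 498 and 593 SRPBM in the controls and 474, 456 and 448 in triptolide. The groups do not overlap, but the log2 difference was only -0.24 ± 0.26, with an unadjusted p of 0.385. Of the 16 Trim circles tested, 13 were below 0, beside 2961 of 5457 over all circRNAs. Their median log2 difference was -0.43, beside -0.06 over all circRNAs, and 0 passed the adjusted limma test. Most of these circles came from Trim37 and Trim24 and shared splice positions, so they are not 16 separate observations.

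**Figure D3:**
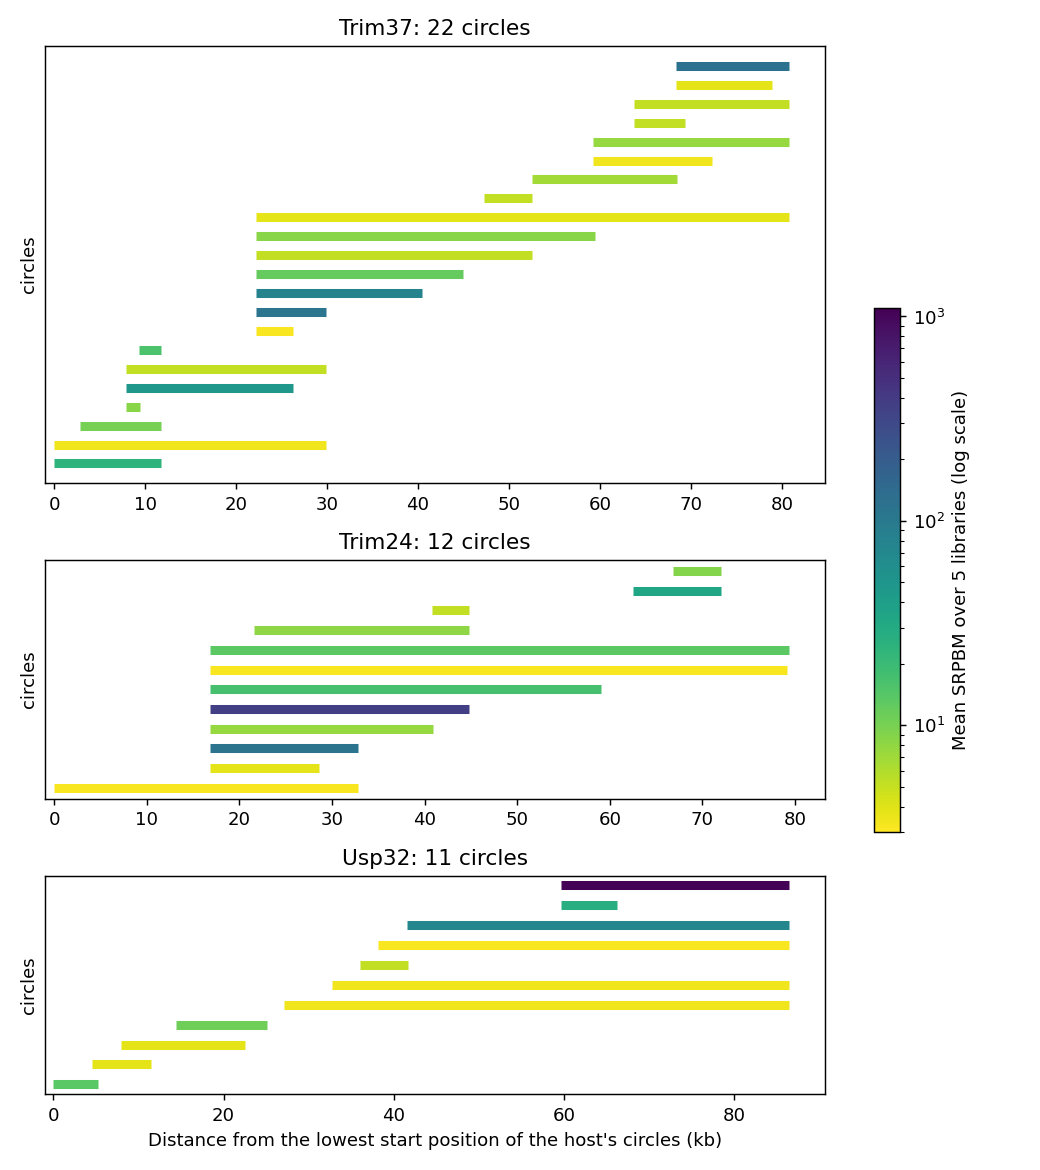
Member circles of Trim37, Trim24 and Usp32 drawn as bars from start to end, 1 bar per circle, against the distance in kilobases from the lowest start listed for that host, with darker colours for higher mean SRPBM on a log scale. Trim37 spreads its 22 circles over many pairs of positions, while 7 of the 12 Trim24 circles leave from 1 shared position.

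HECT ligases gave 37 circles at 8 hosts, all at low level. Herc2, a very large ligase of the DNA damage response, hosted 8 with sums of 130 and 115 SRPBM in the controls and 104, 113 and 77 in triptolide. Inside that narrow range single circles differed in sign: chr7:56100079-56106532 gave 19, 35 and 60 SRPBM in triptolide and 0 in each control (1.68 ± 0.70, unadjusted p of 0.0437), and chr7:56084989-56091025 stood at 61, 41, 0, 44 and 0 SRPBM over the 5 libraries. The Herc3 circle at chr6:58870154-58885157 stood at 17 and 16 SRPBM in the controls and was listed at 0 in triptolide, 2 reads in each control.

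The N-recognins, a ligase family named for reading the first residue of proteins, gave 16 circles at 6 hosts. The Ubr3 circle at chr2:69914414-69922933 was higher in all triptolide libraries, with 17 and 0 SRPBM in the controls and 28, 26 and 26 in triptolide, which is 2 reads or fewer against 3 (adjusted p from limma of 0.732). Summed over its 2 circles, Ubr4 gave 28, 35 and 26 SRPBM in triptolide and 0 in each control (1.51 ± 0.62, unadjusted p of 0.039, adjusted p of 0.754 from limma).

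Among the modular ligases, Cul1, the scaffold of SCF complexes, hosted 4 of the 8 cullin circles. Its leading circle (chr6:47484744-47509103) stood at 26 and 16 SRPBM in the controls and at 38, 70 and 34 in triptolide, without overlap (adjusted p from limma of 0.747). The 25 F-box circles were led by Fbxo47, a factor needed in meiotic prophase. The circle at chr11:97877957-97879588 stood at 237 and 248 SRPBM in the controls and at 124, 0 and 278 in triptolide A, B and C. Triptolide C is the highest of all and triptolide B is at 0, with a log2 difference of -1.57 ± 1.07. With the lone 0 treated as missing the difference was -0.35. Fbxl13, named in the dynein regulatory complex of cilia and flagella, had a circle at 52 and 82 SRPBM in the controls and at 76, 115 and 34 in triptolide (chr5:21543660-21556859). Kelch-BTB adaptors gave 13 circles and the SOCS-box family 1, that of Asb3, at 35, 99, 0, 124 and 0 SRPBM over the 5 libraries.

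Deubiquitinase circles held 0.631% and 0.818% of the circRNA signal in the controls and 0.573%, 0.727% and 0.723% in triptolide, with overlap. Usp32, a membrane-bound enzyme of the endosomal system, made the most abundant member circle, 21st among all circRNAs (chr11:85077265-85104026). It stood at 932 and 1408 SRPBM in the controls and at 880, 1240 and 897 in triptolide A, B and C. Triptolide B lies between the controls and the other triptolide libraries just below control 1. The log2 difference was -0.20 ± 0.31, with an adjusted p from limma of 0.961, and it was -0.50 without control 1 and 0.09 without control 2. This circle held 88.0% of the SRPBM of its host.

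The Usp15 circle at chr10:123146794-123181800 was listed at 0 SRPBM in control 1, at 273 in control 2, and at 95, 230 and 235 in triptolide A, B and C. Usp15 acts on TGF-beta receptors and on SMAD proteins. Control 2 is above all triptolide libraries and control 1 below them. The log2 difference was accordingly 1.48 ± 1.08 with all libraries, -0.61 without control 1, and 3.57 without control 2, where it passed the threshold. The direction for Usp15 is therefore set by which control is used.

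Usp3, an enzyme that removes ubiquitin from histone H2A, had a circle at chr9:66540062-66566903 with 167 and 198 SRPBM in the controls and 95, 310 and 130 in triptolide. Its highest and lowest values are both from triptolide libraries. The Usp54 circle at chr14:20604052-20607905 stood at 167 and 132 SRPBM in the controls and at 76, 141 and 104 in triptolide, with triptolide B between the controls. Usp9y, a Y-linked enzyme, had a circle at 43 and 24 SRPBM in the controls that was listed at 0 in triptolide (chrY:1364661-1368268; -1.60 ± 0.55, unadjusted p of 0.0199, adjusted p of 0.676 from limma). Those are 5 and 3 reads. A Usp34 circle, chr11:23320661-23333859, stood at 26 and 16 SRPBM in the controls and at 0 in triptolide (-1.20 ± 0.45). Usp34 hosted 11 circles, of which 10 were listed in only 1 library, and its sum was 43 and 121 SRPBM in the controls and 0, 43 and 34 in triptolide. Usp6nl and Uspl1 fit the name but not the class: the first encodes an activator of Rab GTPases and the second a protease of the SUMO system.

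Circles of 1 host often shared a splice position. Of the 306 members, 186 (60.8%) shared their start or end with another circRNA, against 68.4% of all circRNAs. The share was 89.7% for Trim circles and 31.2% for Ubr circles. At Trim24, 7 circles shared the start 37903533 and carried 90.1% of the host's SRPBM. At Usp32, 5 shared the end 85104026 with 94.7%, at Usp15, 4 shared the end 123181800 with 90.1%, and at Rnf32, 4 shared the end 29206804 with 92.8%. At these hosts nearly all signal passed through 1 splice position. Trim37 was more spread: its most used start, 87159821, served 7 circles with 44.8% of the SRPBM. Its most used end, 87218330, served 4 circles with 27.7%. Other hosts were spread as well: a start shared by 4 circles held 37.8% at Usp34, and a start shared by 3 held 49.4% at Herc2. Of the member hosts, 45 (41.7%) had a single circle and 16 (14.8%) had at least 5, beside 48.3% and 17.4% of all hosts.

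Over all members, the medians lay close to 0 and the groups overlapped for most circles. The median log2 difference was -0.14 over the 144 tested, beside -0.06 over all circRNAs. Of the members 56 were above 0 and 88 below, beside 2496 and 2961 over all circRNAs. By role it was -0.04 for conjugating enzymes, -0.15 for ligases and -0.18 for deubiquitinases. All triptolide libraries were above both controls for 10 members (6.94%, against 6.78% over all circRNAs), and below both for 14 (9.72%, against 10.5%). For the 35 members listed in all 5 libraries, the median absolute log2 ratio was 0.43 between the group means, 0.69 between the 2 controls, and 0.88, 0.35 and 0.70 between triptolide A and B, A and C, and B and C. Over all 1404 circRNAs listed in 5 libraries the same ratio was 0.41 between the group means and 0.63 between the controls. A mean of several libraries varies less than a single library, so the smaller value between group means is no test.

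**Figure D4:**
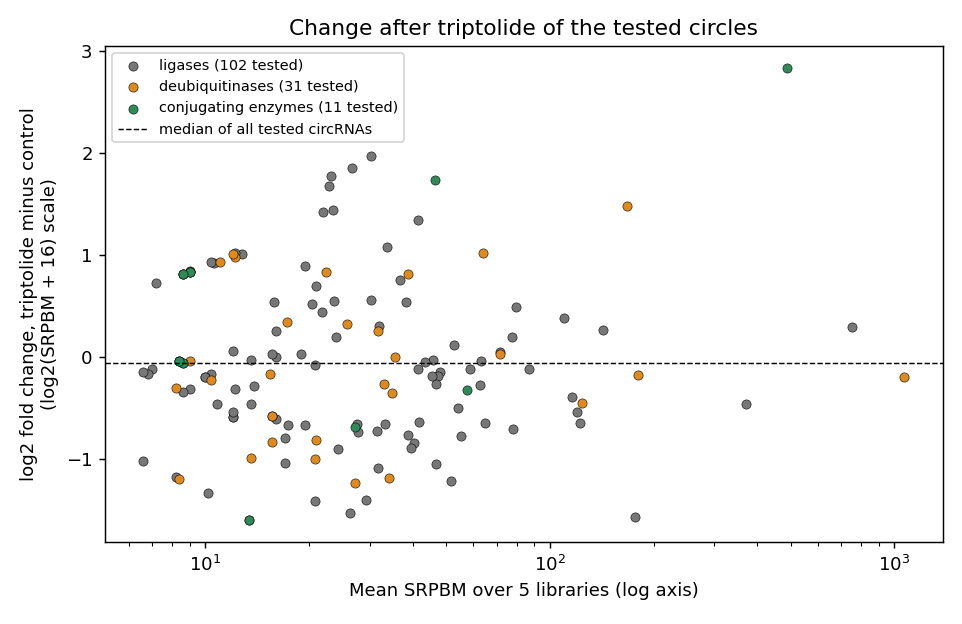
Log2 difference of triptolide from control on the log2(SRPBM + 16) scale against mean SRPBM on a log axis for the 144 member circles tested, coloured by role, with the median of all tested circRNAs as a dashed line. The points scatter on both sides of the line and the green point at 2.83 is the Ube2k circle that control 1 lists at 0.

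Summing all circles of a host also called no member, with more reads per value only where a host had several circles. Of 77 hosts tested, 0 passed the adjusted limma test, as did 0% of 2342 hosts, with a smallest adjusted p among members of 0.754. At an unadjusted p under 0.05, 4 hosts were higher and 1 lower. Over all hosts, 2.65% were higher and 3.63% lower, 6.28% in both directions. DESeq2 gave 2 such members and edgeR 1, all higher. Shares over all hosts were not taken for these tools, so nothing about direction is read from these counts. The higher hosts were Rnf2 (0 and 0 SRPBM in the controls, 57, 26 and 69 in triptolide, 2.00 ± 0.71), Ube2r2, Ubr4 and Ube2k, of which the last rests on control 1. The lower host was Fbxo8, an F-box protein, with 17 and 33 SRPBM in the controls and 0 in all triptolide libraries (-1.33 ± 0.51). Next in the lower direction, with an unadjusted p above 0.05, were Ube2e2 (86 and 106 SRPBM against 0, 35 and 52, -1.55 ± 0.78) and Rnf13 (35 and 130 SRPBM against 19, 0 and 26, -1.59 ± 0.81), a ligase of endosomal membranes. Fbxo44 came next in the higher direction, with 66, 44 and 0 SRPBM in triptolide and 0 in each control. Ube2k, Ube2r2 and Fbxo44 each had 1 listed circle, so their sums repeat the values of that circle. At Rnf2, 1 circle held 87.5% of the SRPBM. The 2 circles of Fbxo8 were each listed in only 1 library. The sums of Rnf2, Ubr4, Fbxo44 and Fbxo8 passed the filter only through the group where they were high.

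Genes of the same system outside the name rule gave no called circle either. The ubiquitin genes and E1 enzymes hosted 4 circles, of which 1 was tested. Other ligases and adaptors hosted 107 circles, with 43 tested and a median log2 difference of 0.01. Other deubiquitinases hosted 40, with 17 tested and a median of 0.20. Proteasome and segregase genes hosted 28, with 15 tested, a median of 0.57 and 10 of 15 above 0, beside 2496 of 5457 over all circRNAs. In each of these lists 0 circles passed the adjusted limma test. In the last 3 lists, 2, 1 and 0 circles had an unadjusted p under 0.05 from limma. These are 4.65%, 5.88% and 0% of the circles tested, beside 6.6% over all circRNAs.

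LncRNA loci were picked by the same name rule, and most of them lie at genes that hosted no listed circle. Of 16356 loci, 71 had a member symbol, 18 of them at a circle host, and 63 were only antisense to the gene they are named for. The libraries held 947298 to 1071012 expected lncRNA counts. Of the 42 loci tested (edgeR's quasi-likelihood test, Benjamini-Hochberg over all loci), 3 were higher and 1 lower after triptolide, against a background of 7.27% of 6888 loci called, 5.01% higher and 2.26% lower. The labels describe a strand-specific kit but no strand setting for the counts; signal at an antisense locus may therefore include reads from the gene opposite it. In counts simulated at a set dispersion of 0.05, this test recovered 20.1% of loci changed 2-fold and 96.9% of those changed 4-fold. The changed loci were drawn only from those averaging at least 10 counts, so rarer loci are not covered.

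The locus antisense to Rnf39 rose most. Rnf39, a RING finger gene of the major histocompatibility region, hosted no listed circle. Its locus (XLOC_088671, chr17:36942953-36947107, minus strand) held 2 and 2 counts in the controls and 25, 37 and 42 in triptolide A, B and 3, or 1.97 ± 0.145 CPM (counts scaled to the library total; SD, n = 2) against 34.0 ± 7.24 (SD, n = 3). The groups lie far apart. The pooled counts, 104 in triptolide and 4 in control, each over the pooled library totals, gave a ratio of 17.4 (exact 95% interval 6.61 to 65.2, counting error only), and the log2 difference was 4.04 ± 0.59 with an adjusted p from edgeR of 3.54e-05. It ranged from 3.87 to 4.18 with each library left out. The locus, read from the minus strand, ends inside the 250 bases before the Rnf39 start, which are shown for that reason with the capitals marking TATAAA.
Rnf39, chr17:36942801-36943050, plus strand: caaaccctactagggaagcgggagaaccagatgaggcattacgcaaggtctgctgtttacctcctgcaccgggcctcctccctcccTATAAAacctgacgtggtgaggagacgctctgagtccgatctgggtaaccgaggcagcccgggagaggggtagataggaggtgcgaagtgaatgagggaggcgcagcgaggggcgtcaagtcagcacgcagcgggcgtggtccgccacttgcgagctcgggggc
This region held 1 TATAAA, 0 GC boxes and 18 CpG with 62.4% G or C, unlike those of Usp32 and Usp15 above.

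The Fbxl20 locus (XLOC_027882, chr11:98090608-98095156, plus strand) also rose, from 11 and 7.1 expected counts in the controls to 49, 43.4 and 57.7 in triptolide. All triptolide libraries are above both controls, and the log2 difference was 2.47 ± 0.40 with an adjusted p from edgeR of 0.000209. Fbxl20 encodes an F-box protein first described at synapses. The Fbxw2 locus (XLOC_104187, chr2:34802353-34816911) rose from 86.8 and 71.0 CPM to 160, 109 and 136 CPM (0.78 ± 0.24, adjusted p from edgeR of 0.042). The Asb1 locus (XLOC_009814, chr1:91537247-91623708) fell from 336 and 392 counts to 245, 163 and 266 (-0.67 ± 0.21, adjusted p from edgeR of 0.049). Asb1 is a SOCS-box protein. Like Rnf39, the genes Fbxl20, Fbxw2 and Asb1 hosted no listed circle. The Fbxw2 call was lost without control 1, control 2, triptolide A or triptolide 3, the Asb1 call without any of the 5 libraries, and both with DESeq2. The Trim9 locus, at 98.5 and 103 CPM in the controls and 50.7, 64.2 and 64.1 CPM in triptolide, just missed the threshold with an adjusted p from edgeR of 0.0575.

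**Figure D5:**
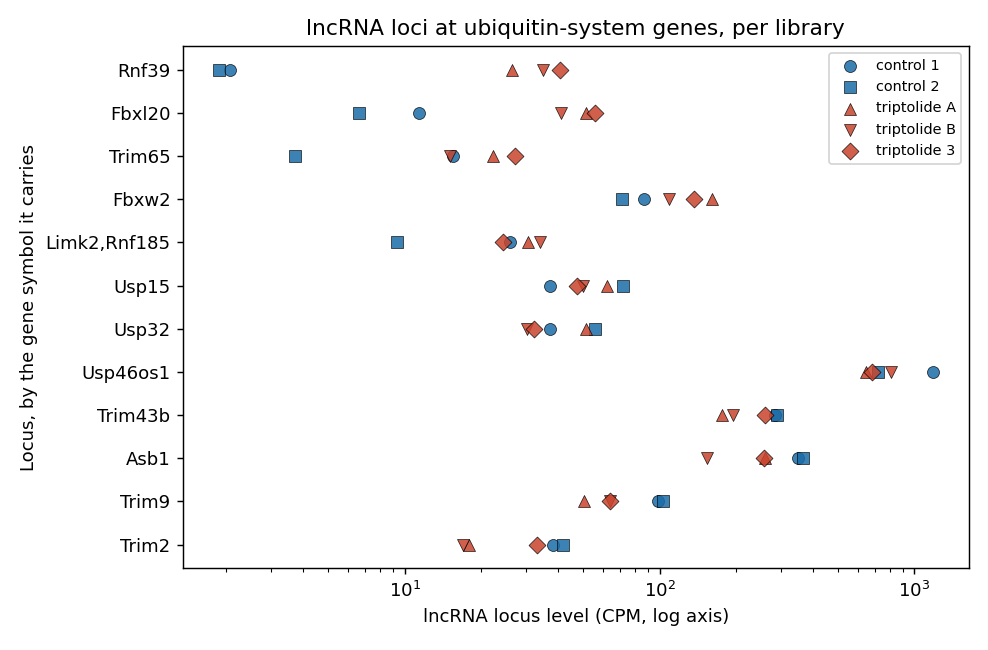
CPM on a log axis at the member-symbol lncRNA loci with the smallest p in each direction and at those of Usp15 and Usp32, with 1 point per library, controls in blue and triptolide in red. The Rnf39 and Fbxl20 loci show the widest gap between groups, 1.97 against 34.0 and 9.02 against 49.6 CPM in the means.

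Loci and circles met at 18 hosts, and 0 of the 12 loci tested there passed (smallest adjusted p from edgeR of 0.291, and 0 with an unadjusted p under 0.05). Over all loci, 7.27% passed adjustment and 21.7% had an unadjusted p under 0.05 from edgeR. So few loci at circle hosts allow no comparison with the other member-symbol loci. At the Usp32 start shown above, the locus on the plus strand (XLOC_027253, chr11:85139880-85142815) held 36 and 60 counts in the controls and 49, 32 and 33 in triptolide A, B and 3. At the Usp15 start, the locus (XLOC_018227, chr10:123196715-123199895) held 36 and 77 counts in the controls and 59, 53 and 49 in triptolide. In both, control 1 and control 2 span most of the range, and the log2 differences were -0.31 ± 0.33 and -0.05 ± 0.30, with adjusted p from edgeR of 0.643 and 0.951. Of the 71 loci, 56 had a symbol with such a region in the RefSeq table, and 21 covered at least part of the start region of the gene on the other strand. Among the genes covered are Limk2 and Endov, which are outside the name rule and share a locus with Rnf185 and Rnf213.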

How the data were processed

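The members, gene lists and tests were chosen with earlier results of these data known. Total RNA of testis was freed of ribosomal RNA and made into directional, paired-end libraries, per the labels. The submitters' processing notes list bedtools 2.17.0, HISAT2 2.0.1, HTSeq 0.6.1 and DESeq without saying what each did. Those notes name a human build, but 305 of the 306 member circles lie inside the RefSeq GRCm38.p6 span of their host symbol, so coordinates are printed as deposited, as mouse.

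The circRNA values are a score deposited by the authors, SRPBM, whose decimals were cut off. The worth of 1 junction read was estimated per library. A value counted as whole reads where a whole number of reads times that worth, with decimals cut off, gave the listed value exactly, which 100% of values above 0 did. The lncRNA values are expected counts deposited by the authors per assembled transcript. They were summed per locus and rounded to whole numbers before testing. The mRNA table gives no gene names and was not used, nor were 5 columns of FPKM values beside the lncRNA counts. Precision is set by the junction reads, and a value of 17 SRPBM is 2 reads. Intervals cover counting error only.

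Triptolide was compared with control by limma 3.58.1 (trend) on log2(SRPBM + 16), over circRNAs above 0 in at least 2 libraries and over sums per host, without covariates. Differences on this scale understate changes of low circles. LncRNA loci were tested with edgeR 4.0.16 (filterByExpr, TMM, quasi-likelihood) in R 4.3.3. All adjusted p-values are Benjamini-Hochberg over every feature tested, with a threshold of 0.05. Scripts were tested on simulated data. Alternatives were pseudocounts of 1 and 50, other filters, rescaled totals, host rows with a single symbol, edgeR and DESeq2 1.42.0 on junction reads, no TMM scaling, limma on log2 CPM, each library left out, and lone zeros treated as missing (1 library at 0 where the other 4 average at least 10 reads), the last added after seeing the data.

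Named circles are the 12 with the highest mean, the 8 with the smallest p in each direction among those without overlap, circles of the 6 hosts with most circles, 5 host sums and 5 loci with the smallest p in each direction, and otherwise the leading circles of each family, chosen after their values were seen. A few members are counted in the totals but not reported here by name.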

Additional observations from a re-analysis of the deposited data

How the results depend on the processing

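No paired analysis was possible because the triptolide columns of the circRNA table share 1 header and those of the lncRNA table carry no full set of numbers. No member circle passed in the limma fit, nor with other pseudocounts, rescaled totals, single host symbols, lone zeros as missing, edgeR or DESeq2. Without a filter 1 passed (Ube2k, with 36 of 11957 circRNAs called). With each library left out the count ranged from 0 to 2. The 2, Ube2k and Usp15, passed without control 2, where 130 of 4560 circRNAs passed and control 1 was the only control, assumed to vary like the triptolide libraries. For host sums the count of 0 ranged from 0 to 1, again Ube2k without control 2. The 4 lncRNA loci called by edgeR became 2 with DESeq2, Rnf39 and Fbxl20, and 2 to 3 with each library left out, where the loci called in all ranged from 269 to 588, beside 501. Trim65 passed only without control 1 and Usp46os1 only without control 2.

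Of 354 values of named circles, hosts and loci under the other alternatives, 3 turned sign. These were Usp3 (0.02 with edgeR and 0.02 with DESeq2, beside -0.18) and Usp15 (-0.61 with the lone zero as missing, beside 1.48). Of 239 values with 1 library left out, 6 turned sign. The ranges were -0.50 to 0.09 for the Usp32 circle, -0.49 to 0.11 for the Usp32 sum, -0.13 to 0.72 for Rnf169, -0.93 to 0.00 for Trim24, -0.64 to 0.14 for Usp3 and -0.61 to 3.57 for Usp15. The causes were not tested. A circle of a few reads allows no statement on absence, since nothing under 2 reads is listed.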
